A study of Mus musculus with 15 samples.

Results

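The 8 genes described here encode enzymes of the mevalonate and cholesterol synthesis pathway: Hmgcs1, Mvk, Mvd, Idi1, Fdps, Fdft1, Sqle and Dhcr7. They were picked by symbol as enzymes of this pathway from 19532 genes measured on Agilent mouse arrays of 2 colours, and 14 of the 32664 probes with 1 gene symbol belonged to them. Of the genes, 6 had 2 probes each, while Sqle and Mvd had 1. The study compared heart ventricles of Acsl1H-/- mice with those of littermate Acsl1flox/flox controls. Acsl1 encodes an enzyme that activates long-chain fatty acids. Hearts were taken 2 weeks after tamoxifen (3 knockout and 4 flox hearts) or 10 weeks after it (4 knockout and 4 flox hearts). All mice were males labelled C57Bl/J6, aged 6 to 8 weeks at injection. All received 75 mg/kg tamoxifen on 4 days, the flox controls too, so both genotypes carry the floxed allele and the drug. No group held the recombinase without the deletion, and the labels name no promoter that drives it. The labels give the arrays of a group as biological replicates.

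Each array set Cy5-labelled heart RNA against Cy3-labelled whole mouse reference RNA, and the deposited values were read here as log2 of the heart signal over that of the reference. Their log base and direction are not stated, so the direction is likely rather than settled, and with the opposite sign every difference given here would turn. Each probe was centred on a median of 0 over the 15 arrays, so a value shows where a heart stood among these hearts and is no expression level. The loss of Acsl1 was not analysed here. The labels could not be checked on the deleted gene. After their values were seen, 2 spots with no gene symbol were singled out because they part the genotypes: AT_nX_3 and AT_nX_5 stood at 7.60 to 8.40 and 6.12 to 6.95 on the 7 knockout arrays. On the 8 flox arrays they stood at -0.228 to 0 and -0.375 to 0, and what they detect was not tested. Markers of the atrium were high on flox 2 weeks replicate 1, with a mean of 3.20 over 4 markers, against -0.748 to 1.16 on the other arrays of that group, and the differences of the 8 genes at 2 weeks are also given without it. The centred values hold no level that could check whether cardiomyocyte markers were strongly expressed. Ventricle samples hold many cell types, and fewer cells of a type cannot be told apart from less RNA per cell.

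Cells build sterols from acetyl-CoA through mevalonate, which is phosphorylated and decarboxylated to isoprene units that are joined into farnesyl diphosphate and squalene and then closed and trimmed to cholesterol. When membrane sterol is low, the factor SREBP-2 is carried by SCAP out of the endoplasmic reticulum, cut by 2 proteases and switches on these genes as a block, while INSIG proteins hold SCAP back when sterol is plentiful. The related factor SREBP-1c mainly serves fatty acid synthesis. Heart muscle burns fatty acids for most of its energy and needs sterol chiefly for its membranes, and farnesyl diphosphate also feeds ubiquinone, dolichol and protein prenylation.

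The stretch before a gene's start is where SREBP and the factors that act beside it bind in the best studied genes of this pathway. RefSeq promoter sequences of GRCm38.p6, 250 bases before to 50 after the start, were held for Hmgcs1, Mvk, Mvd, Idi1 and Dhcr7, and Fdps, Fdft1 and Sqle had no entry in the table used. They were searched on both strands for the SREBP motif TCACNCCAC and for the CCAAT box, whose letters do not overlap with it in these sequences. The SREBP letters were found in 1 of the 5 genes, Hmgcs1, 137 to 129 bases before the start. This was 1 of the 7 promoters of these genes, against 1.242% of the 32851 mouse promoters of the same length. CCAAT was found in 5 of their 7 promoters, with at least 1 in each of the 5 genes, against 37.408% of all promoters. Shown are 3 promoters, as the 250 bases before the start, 5′ to 3′ on the gene's strand with motif matches in capitals. They are Hmgcs1, the only member with the SREBP letters (chr13:119690101-119690350, plus strand), and Mvd, the member with the widest difference between genotypes (chr8:122443423-122443672, minus strand). The last is Insig1, a regulator of the pathway (chr5:28071162-28071411, plus strand). Insig1 was higher in knockout hearts at 10 weeks, a result that was lost in some of the settings given below.
Hmgcs1: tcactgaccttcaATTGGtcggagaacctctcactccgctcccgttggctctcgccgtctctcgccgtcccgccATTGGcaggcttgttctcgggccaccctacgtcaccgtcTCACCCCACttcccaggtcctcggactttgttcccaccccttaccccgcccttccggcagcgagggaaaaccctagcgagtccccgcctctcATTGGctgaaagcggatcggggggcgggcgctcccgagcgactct
Mvd: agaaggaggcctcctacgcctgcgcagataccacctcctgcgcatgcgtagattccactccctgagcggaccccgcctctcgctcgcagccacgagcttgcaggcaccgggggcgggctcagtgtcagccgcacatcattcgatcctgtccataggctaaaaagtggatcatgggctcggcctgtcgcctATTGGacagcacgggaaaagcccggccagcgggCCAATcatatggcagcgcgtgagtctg
Insig1: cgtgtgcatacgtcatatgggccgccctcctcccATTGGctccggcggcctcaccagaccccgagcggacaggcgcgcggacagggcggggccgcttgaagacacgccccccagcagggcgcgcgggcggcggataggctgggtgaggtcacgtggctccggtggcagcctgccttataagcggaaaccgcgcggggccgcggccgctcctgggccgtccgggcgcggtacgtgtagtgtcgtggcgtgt
In capitals are TCACCCCAC in the Hmgcs1 sequence, and otherwise CCAAT or its reverse complement ATTGG. A match is a run of letters and was not tested for binding, and a missing match concerns these windows only.

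No sterol synthesis gene passed the test in knockout hearts at either time. At 2 weeks 0 of 8 were called with limma at an adjusted p under 0.05, against 0.00512% of all genes (1 of 19532), and the lowest adjusted p of a member was 0.646. At 10 weeks 0 of 8 were called, against 0.686% of all genes (134), and the lowest adjusted p was 0.783. Without adjustment, p lay under 0.05 for 2 members at 2 weeks, Mvd and Mvk, against 7.25% of all genes, and for none at 10 weeks, against 9.96%. The members were split in sign, with 4 above 0 and 4 below at each time, which cannot exclude a small joint shift. Their median log2 difference, knockout minus flox, was -0.02 at 2 weeks and 0.02 at 10 weeks, where the median of all genes was -0.02 both times. Without flox 2 weeks replicate 1, 0 of 8 were called at 2 weeks, 3 lay above 0 and 5 below, and their median was -0.05. Knockout and flox hearts did not overlap for 1 member at 2 weeks, Mvd (8.78% of all genes), and for 0 at 10 weeks (6.6% of all genes).

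**Figure D1:**
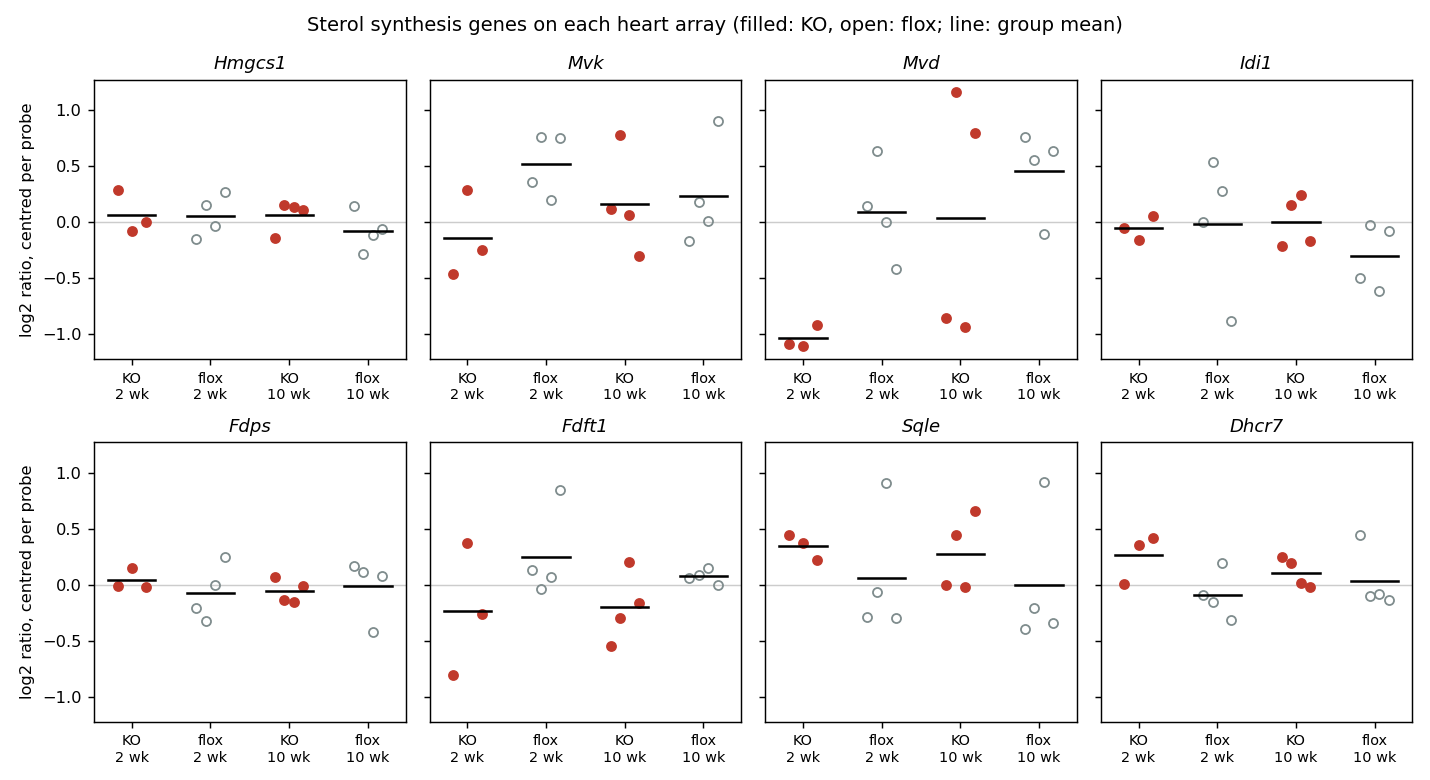
Values of the 8 sterol synthesis genes on each of the 15 arrays, as log2 ratios centred per probe (vertical axis), with filled points for knockout (KO) hearts, open points for flox hearts and lines for group means. The 3 knockout hearts at 2 weeks lie below all 4 flox hearts for Mvd, and the groups overlap at both times for the other 7 genes.

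Early steps are the making of HMG-CoA by Hmgcs1 and the phosphorylation of mevalonate by Mvk. Hmgcs1 ranged from -0.08 to 0.28 in knockout hearts and from -0.15 to 0.26 in flox hearts at 2 weeks, with a log2 difference of 0.01 ± 0.14 (SE, adjusted p = 0.993), which turned to -0.06 without flox 2 weeks replicate 1. At 10 weeks it averaged 0.06 ± 0.137 (SD, n = 4) in knockout hearts and -0.08 ± 0.177 (SD, n = 4) in flox hearts, a difference of 0.14 ± 0.13 (limma, adjusted p = 0.805). The mean of its 2 probes had the narrowest 95% interval of the members, -0.29 to 0.31 at 2 weeks and -0.13 to 0.42 at 10 weeks. These intervals do not show how far the probes differed, which was by 0.30 against -0.01 for knockout minus flox at 10 weeks. Mvk stood at -0.47, 0.28 and -0.25 in knockout hearts at 2 weeks and at 0.35, 0.76, 0.20 and 0.75 in flox hearts. Knockout replicates 1 and 3 lay below every flox heart, while replicate 2 lay above the lowest of them. The log2 difference was -0.66 ± 0.29 (unadjusted p = 0.0423, limma adjusted p = 0.670). It was -0.71 (adjusted p = 0.634) without flox 2 weeks replicate 1. At 10 weeks Mvk averaged 0.16 ± 0.449 (SD, n = 4) in knockout hearts and 0.23 ± 0.473 (SD, n = 4) in flox hearts, with a difference of -0.07 ± 0.27 (limma, adjusted p = 0.973).

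Mvd decarboxylates mevalonate diphosphate to isopentenyl diphosphate, and Idi1 turns that into its isomer dimethylallyl diphosphate. Mvd stood at -1.09, -1.11 and -0.92 in knockout hearts at 2 weeks and at 0.14, 0.64, 0.00 and -0.42 in flox hearts. All 3 knockout hearts lay below all 4 flox hearts. The log2 difference was -1.13 ± 0.46, with a 95% interval of -2.12 to -0.14 and an unadjusted p = 0.0281, and it did not pass over all genes (limma, adjusted p = 0.646). It was -1.11 (adjusted p = 0.643) without flox 2 weeks replicate 1, and between -1.30 and -0.95 when any 1 array was left out. At 10 weeks Mvd stood at -0.86, 1.16, -0.93 and 0.79 in knockout hearts and at 0.76, 0.55, -0.11 and 0.63 in flox hearts. The knockout hearts fell on both sides of the flox hearts, 2 below all of them and 2 above all of them, and the difference was -0.42 ± 0.42 (limma, adjusted p = 0.836). It ran from -0.79 without knockout replicate 2 to -0.10 without knockout replicate 3. Idi1 averaged -0.05 ± 0.107 (SD, n = 3) in knockout hearts and -0.02 ± 0.619 (SD, n = 4) in flox hearts at 2 weeks. At 10 weeks it stood at -0.21, 0.15, 0.25 and -0.17 in knockout hearts and at -0.50, -0.03, -0.62 and -0.08 in flox hearts. Its log2 difference was -0.04 ± 0.28 at 2 weeks (adjusted p = 0.985), and -0.03 without flox 2 weeks replicate 1, and 0.31 ± 0.26 at 10 weeks (adjusted p = 0.783).

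Fdps joins isoprene units into farnesyl diphosphate, the branch point to ubiquinone, dolichol and prenylated proteins, and Fdft1 joins a pair of farnesyl diphosphates into squalene. Fdps ranged from -0.02 to 0.15 in knockout hearts and from -0.32 to 0.25 in flox hearts at 2 weeks. Its log2 difference was 0.11 ± 0.16 (adjusted p = 0.907) at 2 weeks, or 0.06 without flox 2 weeks replicate 1, and -0.04 ± 0.15 (adjusted p = 0.970) at 10 weeks. Fdft1 stood at -0.80, 0.37 and -0.26 in knockout hearts at 2 weeks and at 0.13, -0.04, 0.07 and 0.84 in flox hearts. The knockout hearts spanned most of the range of this gene, and the difference was -0.48 ± 0.27 (limma, adjusted p = 0.750). It was -0.20 without knockout 2 weeks replicate 1, -0.79 without knockout 2 weeks replicate 2, -0.29 without flox 2 weeks replicate 4 and -0.52 without flox 2 weeks replicate 1. At 10 weeks Fdft1 stood at -0.55, -0.29, 0.20 and -0.16 in knockout hearts and at 0.06, 0.09, 0.15 and 0.00 in flox hearts. Of the knockout hearts, 3 lay below all flox hearts and 1 above them all, with a difference of -0.28 ± 0.25 (limma, adjusted p = 0.806).

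Sqle adds oxygen to squalene, a rate-setting step of the late pathway, and Dhcr7 makes one of the last reductions that yield cholesterol. Sqle stood at 0.45, 0.38 and 0.22 in knockout hearts at 2 weeks and at -0.29, -0.07, 0.90 and -0.30 in flox hearts. The knockout hearts lay above 3 flox hearts and below flox replicate 3. Its log2 difference was 0.28 ± 0.34 (limma, adjusted p = 0.882) at 2 weeks, and 0.17 without flox 2 weeks replicate 1. At 10 weeks it was 0.28 ± 0.32 (limma, adjusted p = 0.866), with the flox hearts at -0.40, -0.21, 0.92 and -0.34 again parted by replicate 3, while knockout hearts ran from -0.02 to 0.66. It was 0.59 without flox replicate 3 and as low as 0.15 without flox replicate 1. Dhcr7 stood at 0.01, 0.36 and 0.42 in knockout hearts at 2 weeks and at -0.09, -0.16, 0.20 and -0.32 in flox hearts. Knockout replicates 2 and 3 lay above every flox heart, and the difference was 0.35 ± 0.17 (limma, adjusted p = 0.699), and 0.35 without flox 2 weeks replicate 1. At 10 weeks Dhcr7 averaged 0.11 ± 0.133 (SD, n = 4) in knockout hearts and 0.03 ± 0.277 (SD, n = 4) in flox hearts, a difference of 0.08 ± 0.16 (limma, adjusted p = 0.938).

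A test that a gene misses does not show that it is unchanged, and the intervals set what these arrays can bound. At 2 weeks the 95% intervals of the 8 genes lay within -2.12, the lower end for Mvd, and 1.02, the upper end for Sqle. At 10 weeks they lay within -1.34 and 0.96, set by the same genes. Standard errors ran from 0.139 (Hmgcs1) to 0.458 (Mvd) at 2 weeks.

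**Figure D2:**
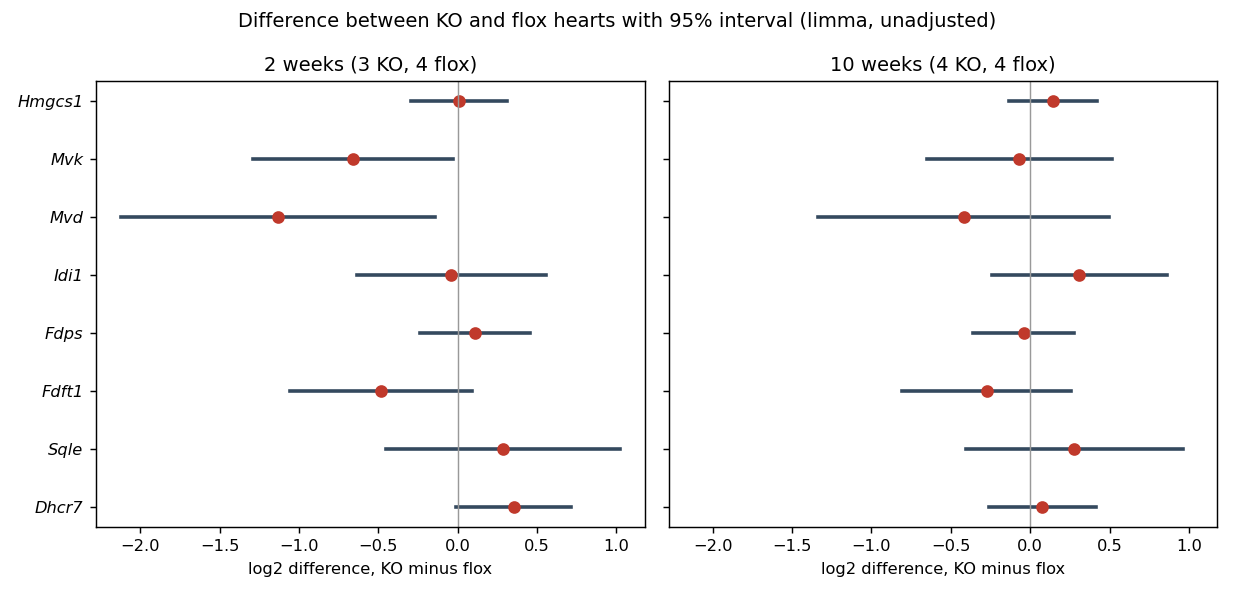
Log2 differences, knockout (KO) minus flox, of the 8 genes at 2 weeks (left) and 10 weeks (right), as points with unadjusted 95% intervals from limma as bars. The intervals of Mvk and Mvd at 2 weeks lie below 0, at -1.29 to -0.03 and -2.12 to -0.14, and those of the other genes, and of all 8 at 10 weeks, include 0.

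The effect of the knockout was not shown to differ between the times for any of the 8 genes. For the difference between the effects, 10 weeks minus 2 weeks, 0 of 8 were called and 0 of all genes (0%), with 0 members against 6.81% of all genes at an unadjusted p under 0.05. The median of the members was 0.17, against 0.01 over all genes. Mvd had the largest, 0.71 ± 0.62 (limma, adjusted p = 0.821), and Mvk followed with 0.59 ± 0.40 (adjusted p = 0.799). In knockout hearts 0 members were called between 10 and 2 weeks, against 0.389% of all genes, and 1 member, Mvd, had an unadjusted p under 0.05, against 11.2%. Mvd was higher at 10 than at 2 weeks by 1.08 ± 0.46 (limma, adjusted p = 0.403), and 2 of the 4 hearts at 10 weeks, at -0.86 and -0.93, lay within or beside the values at 2 weeks. In flox hearts 0 members were called, as were 0 of all genes (0%), and 0 had an unadjusted p under 0.05, against 4.17% of all genes.

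The 2 probes of a gene often differed. Over the 15 arrays their values correlated between -0.14 and 0.13 in the 6 genes that had 2, where the median over all 5405 genes with exactly 2 probes was 0.0464. The probes of a gene share the array and its RNA, and these correlations are a description. The differences between genotypes had opposite signs for 3 of the 6 genes at 2 weeks (Hmgcs1, Idi1 and Fdps), against 48.2% of all 2-probe genes. They did so for 4 of the 6 at 10 weeks (Hmgcs1, Mvk, Fdft1 and Dhcr7), against 45.2%. For Mvk at 2 weeks, 1 probe differed by -1.25 and the other by -0.07, so the value of the gene rested on 1 probe. For Dhcr7 the probes differed by 0.19 and 0.51 at 2 weeks and by 0.48 and -0.33 at 10 weeks. For Fdft1 they differed by -0.72 and -0.25 at 2 weeks and by -0.59 and 0.04 at 10 weeks. Of the 14 probes, 3 had an unadjusted p under 0.05 at 2 weeks, against 6.87% of all 32664 probes, and 2 at 10 weeks, against 9.26%. Those at 2 weeks were 1 probe each of Mvk, Mvd and Dhcr7. Those at 10 weeks were 1 probe of Hmgcs1 (0.30) and 1 of Dhcr7 (0.48), and the other probe of each lay below 0. None of the 14 was called at 2 weeks, against 0.0153% of all probes (5), or at 10 weeks, against 0.634% (207). The lowest adjusted p of a member's probe was 0.38. Mvd, the member farthest from 0, has no second probe to set beside it.

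**Figure D3:**
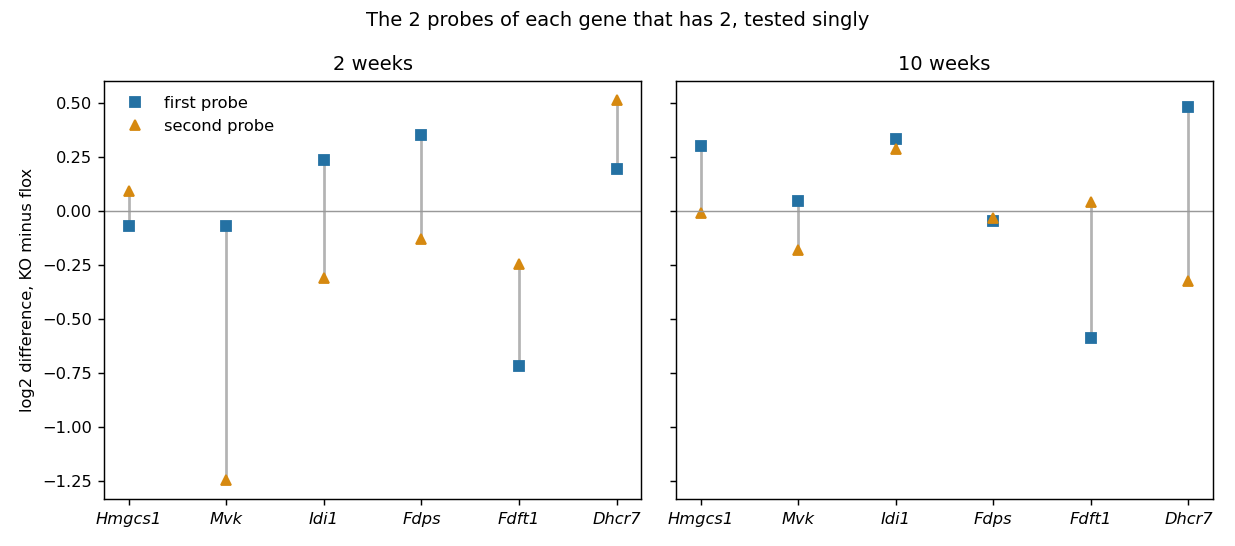
Log2 differences, knockout (KO) minus flox, for each probe of the 6 sterol synthesis genes with 2 probes, at 2 weeks (left) and 10 weeks (right). Squares and triangles are the 2 probes of a gene joined by a line, and the lines cross 0 for Hmgcs1, Idi1 and Fdps at 2 weeks and for Hmgcs1, Mvk, Fdft1 and Dhcr7 at 10 weeks.

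The members varied unequally within groups, and their correlations over the 15 arrays were low or moderate. The standard deviation within groups was 0.172 for Hmgcs1, 0.205 for Fdps and 0.217 for Dhcr7, below the median of 0.307 over all genes. It was 0.367 for Fdft1, 0.381 for Idi1, 0.406 for Mvk, 0.478 for Sqle and 0.646 for Mvd, and 89.7% of all genes had a smaller one than Mvd. Across the 15 arrays the 28 pairs of members had a median Pearson correlation of -0.03, with a range of -0.43 to 0.44, and 16 pairs lay below 0. All these points share their arrays, so the correlations are a description. Even the 2 probes of the same member correlated only between -0.14 and 0.13, so these values cannot tell whether the genes vary together. The genes whose pattern lay closest to the mean of the 8 members over the 15 arrays were Zfp367 (r = 0.82), Foxq1 (r = 0.81), Vmn1r172 (r = 0.80), Cldn34b3 (r = 0.79) and Tnfrsf8 (r = 0.79). That mean followed Mvd (r = 0.79) and Mvk (r = 0.60) most closely. Idi1 and Fdft1 stood at 0.30 and 0.28, Sqle and Hmgcs1 at 0.10 and 0.08, and Dhcr7 and Fdps at -0.09 and -0.10. The genes from outside the lists were picked for the highest r, so their high values follow from the choice.

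None of the other sterol enzymes measured passed the test either. Of 10 such genes, 0 were called at 2 or 10 weeks, against 0.00512% and 0.686% of all genes. The medians of the 10 genes were -0.03 and -0.08. At 2 weeks Lss, which closes squalene epoxide into the first sterol, ranged from -0.32 to -0.14 in knockout hearts and from -0.02 to 0.50 in flox hearts, without overlap, and differed by -0.38 ± 0.24 (limma, adjusted p = 0.781). Tm7sf2, a sterol reductase, differed by -0.99 ± 0.49 (adjusted p = 0.711) and Hsd17b7, a sterol ketone reductase, by -0.53 ± 0.44 (adjusted p = 0.810) at 2 weeks. Without flox 2 weeks replicate 1 the differences were -0.27 for Lss, -0.79 for Tm7sf2 and -0.63 for Hsd17b7, and 0 of the 10 genes were called. At 10 weeks Msmo1, which removes methyl groups from the ring, differed by 0.36 ± 0.17 (adjusted p = 0.524), Ebp, a sterol isomerase, by -0.14 ± 0.10 (adjusted p = 0.724) and Hsd17b7 by -0.54 ± 0.41 (adjusted p = 0.755). Acat2 was not analysed here.

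Among the genes that sense sterol and process SREBP, 2 of 7 rose in knockout hearts at 10 weeks and 0 passed at 2 weeks. Of all genes, 0.686% were called at 10 weeks and 0.00512% at 2 weeks. Srebf1, which encodes the SREBP-1 proteins, stood at 1.03, 0.89, 1.13 and 1.13 in knockout hearts at 10 weeks and at -0.21, 0.00, -0.09 and -0.39 in flox hearts. All knockout hearts lay above all flox hearts, and the difference was 1.22 ± 0.11 (limma, adjusted p = 0.000355). At 2 weeks it was 0.31 ± 0.12, again without overlap (unadjusted p = 0.0251, limma adjusted p = 0.637), and 0.37 (adjusted p = 0.493) without flox 2 weeks replicate 1. Srebf1 has no second probe to set beside these values. Insig1, which holds the SCAP complex in the endoplasmic reticulum and is itself switched on by SREBP, stood at 1.20, 1.16, 0.61 and 0.77 in knockout hearts at 10 weeks and at 0.00, -0.19, -0.15 and 0.00 in flox hearts. The groups did not overlap, and the difference was 1.02 ± 0.19 (limma, adjusted p = 0.0305), against 0.00 ± 0.21 at 2 weeks. It rested on 1 of 2 probes of Insig1, with probe differences of 1.99 and 0.05, and the call was lost when any array of that time other than knockout replicate 3 was left out (adjusted p = 0.0618 to 0.0922). The change of the effect between the times was not called for Srebf1 (0.91, adjusted p = 0.166) or Insig1 (1.02, adjusted p = 0.484). In knockout hearts Srebf1 was higher at 10 than at 2 weeks by 0.94 ± 0.12 (limma, adjusted p = 0.00564), a call that was lost when the arrays of that contrast were fitted alone (adjusted p = 0.0568). Srebf2, which encodes SREBP-2, differed by 0.19 ± 0.14 at 10 weeks and did not pass, nor did Scap, Insig2, Mbtps1 and Mbtps2. At 10 weeks the median of the 7 genes was 0.17, beside 0.02 for the 8 sterol synthesis genes and -0.02 for all genes. The 7 genes were listed with earlier results of these data known.

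Neither the isoprenoid branches nor sterol traffic held a called gene, against 0.00512% of all genes at 2 weeks and 0.686% at 10 weeks. Of 10 genes of the branches that lead from farnesyl diphosphate to ubiquinone, dolichol and prenylated proteins, 9 were measured. Of these, 0 were called at either time, with medians of -0.11 at 2 weeks and -0.01 at 10 weeks. At 2 weeks the smallest p-values belonged to Coq2 of ubiquinone synthesis (-0.15 ± 0.12), to Fntb, a farnesyltransferase subunit (-0.22 ± 0.23), and to Ggps1, which makes geranylgeranyl diphosphate (0.34 ± 0.39). At 10 weeks Pggt1b, a subunit of an enzyme that prenylates proteins, differed by 0.67 ± 0.24 (limma, adjusted p = 0.315), Icmt, which methylates prenylated proteins, by -0.32 ± 0.19 and Coq2 by -0.17 ± 0.11. Of 17 genes of sterol transport, storage and export, 15 were measured and 0 called, with medians of -0.01 at 2 weeks and 0.21 at 10 weeks. At 10 weeks Nceh1, a cholesteryl ester hydrolase, ranged from 0.28 to 0.48 in knockout hearts and from -0.08 to 0.10 in flox hearts (0.35 ± 0.09, adjusted p = 0.111), without overlap. Lrp1, a lipoprotein receptor, ranged from 0.22 to 0.46 in knockout hearts and from -0.32 to -0.07 in flox hearts (0.51 ± 0.13, adjusted p = 0.13). Abca1, which exports cholesterol, differed by 0.65 ± 0.20 (adjusted p = 0.199). At 2 weeks Nceh1 differed by 0.30 ± 0.10 (adjusted p = 0.531), Abcg1, another sterol exporter, by 1.21 ± 0.46 (adjusted p = 0.635) and Lrp1 by 0.33 ± 0.15 (adjusted p = 0.659). Without flox 2 weeks replicate 1 these were 0.26, 1.36 and 0.40 for Nceh1, Abcg1 and Lrp1, and 0 genes of either list were called. Pdss1, Nr1h2 and Soat1 were not analysed here.

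**Figure D4:**
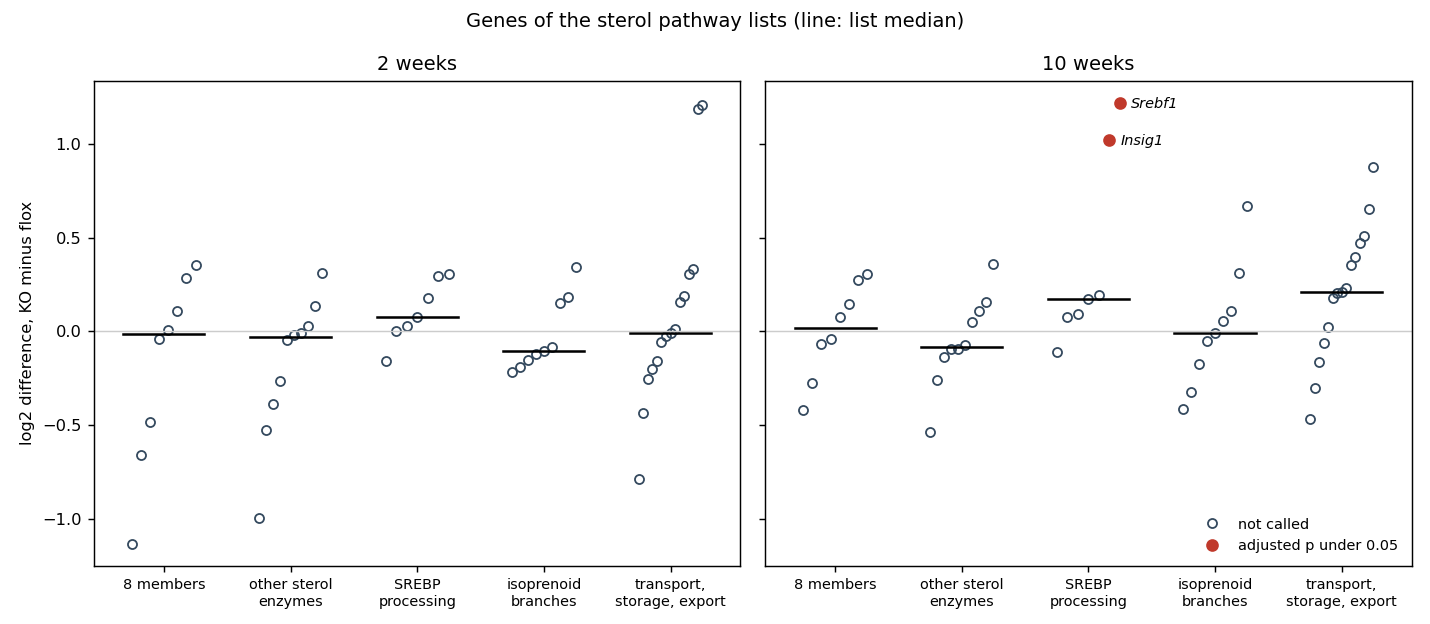
Log2 differences, knockout (KO) minus flox, of each measured gene of the 8 members and 4 related lists at 2 weeks (left) and 10 weeks (right), with list medians as lines. Filled points passed at an adjusted p under 0.05: Srebf1 and Insig1 at 10 weeks, at 1.22 and 1.02, and no other gene of these lists at either time.

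At 2 weeks, beside the values of Mvd and Mvk, all measured markers of some cell types lay on the same side of 0. Others were mixed: 4 of 6 endothelial, 4 of 5 macrophage, 2 of 4 smooth muscle and 3 of 7 cardiomyocyte markers lay above 0. All 6 fibroblast markers lay above 0 for knockout minus flox at 2 weeks, and their mean ranged from 0.180 to 0.874 in knockout hearts and from -0.376 to 0.164 in flox hearts. All 3 red blood cell markers lay below 0, and their mean ranged from -0.694 to -0.398 in knockout hearts and from -0.320 to 0.162 in flox hearts, and that of 7 cardiomyocyte markers from -0.091 to 0.030 in knockout hearts and from -0.237 to 0.255 in flox hearts. All 4 atrial markers lay below 0 at 2 weeks, with a median log2 difference of -1.19, or -0.39 without flox replicate 1, and their mean ranged from -0.692 to 0.030 in knockout hearts and from -0.748 to 3.20 in flox hearts. All 5 adipocyte markers lay below 0, with a median of -0.37, and 4 of 5 without flox replicate 1, with a median of -0.20, while at 10 weeks 4 of 5 lay above 0 with a median of 0.39. The adipocyte mean at 2 weeks ranged from -0.289 to -0.028 in knockout hearts and from -0.172 to 0.823 in flox hearts. At 10 weeks, beside the values of Srebf1 and Insig1, all 6 fibroblast markers again lay above 0, and their mean ranged from -0.034 to 0.322 in knockout hearts and from -0.749 to -0.019 in flox hearts, with overlap. All 4 atrial markers lay below 0, and their mean ranged from -0.443 to 0.059 in knockout hearts and from 0.070 to 0.258 in flox hearts at 10 weeks, without overlap. Mixed at 10 weeks were 2 of 7 cardiomyocyte, 3 of 6 endothelial, 2 of 4 smooth muscle, 3 of 5 macrophage and 1 of 3 red blood cell markers above 0. The cardiomyocyte mean then ranged from -0.273 to -0.031 in knockout hearts and from -0.072 to 0.194 in flox hearts. That of red blood cell markers ranged from -0.170 to 0.059 and from 0 to 0.257. No gene of these lists was called at either time, against 0.00512% of all genes at 2 weeks and 0.686% at 10 weeks. The part of these markers in the results was not tested.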

How the data were processed

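Per the labels' protocols, 500 ng of heart ventricle RNA was labelled with Cy5 and whole mouse reference RNA with Cy3, and both were hybridised to Agilent arrays. The deposited table holds 41267 probes on 15 arrays and is taken as log2 ratios. The scan, background correction and scaling by the authors, the log base and the ratio's direction have no description in the labels. All 41267 probes had a median of 0 over the arrays, values ran from -4.96 to 8.40, and array medians from -0.0207 to 0.0325.

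Symbols came from GEO's platform annotation and were updated by Entrez ID to the GRCm38.p6 RefSeq table: 32664 probes had 1 symbol, 45 several and 8558 none listed. Probes with 1 symbol were averaged per gene. limma 3.58.1 in R 4.3.3 fitted 4 group means to all 15 arrays (11 residual and 2.07 prior degrees of freedom). Two-sided p-values were adjusted over 19532 genes by Benjamini-Hochberg and called under 0.05. Errors of differences are SE, and intervals are 95%. The fit was tested on simulated data. Members and lists were chosen with earlier results of these data known. Named from a related list were called genes, otherwise up to 3 with the smallest p at each time, and from outside the lists the 5 genes closest to the members' mean; other genes were named after their values were seen. No signal over background was used, and the precision is that of 3 or 4 arrays a group.

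Arrays with the same replicate number were not paired by the labels. Alternatives were median centring, quantile normalization, the most variable probe, a fit per contrast, array weights, robust moderation, a replicate block, single probes and leaving out each array.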

Additional observations from a re-analysis of the deposited data

Results flagged for a closer look

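In 24 groups of 4 arrays, each of the 8 genes was examined for 1 array far from the other 3, as the gap to the nearest divided by the range (Dixon's criterion for 4 values). Chance alone passes about 1 group in 20. For Hmgcs1 in knockout hearts at 10 weeks the share was 0.847, with replicate 1 low at -0.139. For Fdps in flox hearts at 10 weeks it was 0.852, with replicate 3 low at -0.419. That same heart was high for Sqle, at 0.921, with a share of 0.855. For Dhcr7 in flox hearts at 10 weeks it was 0.917, with replicate 1 high at 0.446. At 10 weeks, knockout minus flox without that array was 0.212 for Hmgcs1, -0.176 for Fdps, 0.586 for Sqle and 0.214 for Dhcr7.

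Outside the genes, the spots AT_nX_3 and AT_nX_5 carry no gene symbol in the annotation used, and the lowest knockout array lay above the highest flox array by 7.60 and 6.12 on the log2 scale. What these spots detect was not tested.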

How the results depend on the processing

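No sterol synthesis gene was called in any comparison under the 7 alternatives, with single probes or without any 1 of the 15 arrays. The lowest adjusted p of a member in these settings was 0.513 at 2 weeks, 0.38 at 10 weeks and 0.259 over all comparisons. Directions of differences that had not been called did turn, and the cause was not tested. With a gene's most variable probe in place of its mean, the members' median log2 difference was 0.163 (2 weeks), -0.116 (10 weeks) and 0.0440 (difference between the effects). In that setting Idi1 was 0.235 at 2 weeks and -0.0114 for 10 minus 2 weeks in knockout hearts, Hmgcs1 -0.0128 at 10 weeks and -0.104 for the difference between the effects, and Dhcr7 -0.328 at 10 weeks. For 10 minus 2 weeks in knockout hearts, Hmgcs1 turned to 0.00608 with median centring, 0.00809 with quantile normalization and 0.00932 with array weights. With array weights Hmgcs1 was -0.00579 at 2 weeks, Sqle 0.0303 for the difference between the effects and Fdft1 -0.000702 for time in knockout hearts. With the replicate number as a block, Sqle was 0.0273 and Fdft1 -0.0299 for the same comparisons. Single probes gave the opposite sign to their gene at 2 weeks for Hmgcs1 (-0.0734), Idi1 (0.235) and Fdps (-0.129), and at 10 weeks for Hmgcs1 (-0.0128), Mvk (0.0461), Fdft1 (0.0415) and Dhcr7 (-0.328). They did so for the difference between the effects for Hmgcs1 (-0.104), Fdps (0.0961) and Dhcr7 (0.285), and for time in flox hearts for Fdps (-0.0534) and Dhcr7 (-0.181). For time in knockout hearts this held for Hmgcs1 (0.239), Idi1 (-0.0114), Fdps (0.0427), Fdft1 (-0.0549) and Dhcr7 (0.105).

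Without 1 array at a time, signs turned within these ranges. At 2 weeks Hmgcs1 ran from -0.0985 to 0.0824 and Idi1 from -0.328 to 0.146, and at 10 weeks Mvk from -0.272 to 0.157 and Fdps from -0.176 to 0.0182. With no turn at 10 weeks, Hmgcs1 ran from 0.0753 to 0.219, Sqle from 0.146 to 0.586, Dhcr7 from 0.0209 to 0.214 and Fdft1 from -0.409 to -0.158, and at 2 weeks Fdps from 0.0266 to 0.217 and Sqle from 0.164 to 0.564. For the difference between the effects Fdft1 ran from -0.0774 to 0.511 and Sqle from -0.287 to 0.302. In flox hearts over time Fdps ran from -0.0290 to 0.189, Fdft1 from -0.274 to 0.0202, Sqle from -0.379 to 0.210 and Dhcr7 from -0.0154 to 0.219. In knockout hearts over time Hmgcs1 ran from -0.0751 to 0.106, Idi1 from -0.0253 to 0.128, Fdft1 from -0.254 to 0.334 and Sqle from -0.206 to 0.0201.

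Srebf1 at 10 weeks was called in every setting that was run. It has no second probe, so the settings that choose or separate probes could not test this call. Its change over time in knockout hearts was lost with the arrays of that contrast alone (limma, adjusted p = 0.0568). Insig1 at 10 weeks was lost with the most variable probe (1.99, adjusted p = 0.0718), the arrays of the contrast alone (adjusted p = 0.0564), the replicate block (adjusted p = 0.0660) and each probe singly, and ran from 0.931 to 1.13 without 1 array. These settings for Srebf1 and Insig1 were added after seeing the data.

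The 21 pairs of arrays with the same replicate number had correlations of deviations from their group means of -0.0340 to 0.123, 1 of them above 0.1, so the numbers were not taken as pairing; the block left 0 members called and called 0 genes of all at 2 weeks, 71 at 10 weeks and 31 for time in knockout hearts. Over all genes, the 134 calls at 10 weeks became 89 with the most variable probe, 50 with the arrays of the contrast alone and 61 to 142 without 1 array. The 1 call at 2 weeks became 0 with quantile normalization, 3 with the most variable probe and 0 to 10 without 1 array. The 76 over time in knockout hearts became 47 with quantile normalization, 12 with the contrast alone and 41 to 89 without 1 array. The difference between the effects gave 1 call with the most variable probe and 0 to 4 without 1 array, and time in flox hearts 0 to 1. Background correction and a filter on dim probes were not run, since scanner intensities were not used here.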
